A study of Homo sapiens with 3 samples.

Results

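SMAD2/3 binding was examined around 8 genes whose products restrain TGFβ signalling, namely SKIL, SMAD7, SKI, SMURF1, SMURF2, TGIF1, LDLRAD4 and BAMBI. A gene's window was its body on hg19, with limits given to the nearest kb, plus 50 kb on each side, and every listed peak overlapping a window was taken as belonging to that gene. The 8 windows span 106 to 534 kb each and 1.638 Mb in all. They held 12 of the 3280 peaks listed at 16 h and 14 of the 2206 listed at 1.5 h.

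The cells were MCF10A MII, a human breast epithelial line transformed with H-Ras, stimulated with TGFβ3 at 5 ng/ml for 16 h or for 1.5 h. Chromatin was immunoprecipitated with an antibody against SMAD2 and SMAD3, and each time is represented by 1 library. Input DNA from untreated cells makes up the last of the 3 samples and was not analysed here. No SMAD2/3 library of unstimulated cells was analysed, so binding before stimulation is unknown. With 1 library a time no value has a replicate error, no test was made between the times, and peaks listed at 16 h or at 1.5 h describe that library. Sequencing depth is unknown from the lists, and a peak missing from a list may have fallen just under the authors' threshold. Peak positions carry no information on expression, so the cell type was not checked against marker genes.

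TGFβ receptors phosphorylate SMAD2 and SMAD3, which enter the nucleus with SMAD4 and bind DNA mostly beside other factors. SMAD7 is the inhibitory SMAD that occupies the activated receptor and brings the ubiquitin ligases SMURF1 and SMURF2 to it. SKI and its relative SKIL (SnoN) bind SMAD complexes on DNA and recruit co-repressors, and TGIF1 is a homeodomain protein that also represses SMAD-bound genes. LDLRAD4 is a membrane protein that keeps SMAD2 and SMAD3 from the receptor, and BAMBI resembles a receptor without a kinase domain. Several of these genes are known targets of the pathway they restrain.

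Promoter sequences are shown for the 3 genes with peaks at or within 3 kb of the gene start, SKIL, SMAD7 and TGIF1, to show what the sequence at such starts looks like. They run from 250 bases before to 50 bases after an annotated start, come from RefSeq on GRCh38.p14, and were matched by gene symbol and not by the hg19 peak positions. They were not cut from under the peaks, and positions were not converted between the builds. Whether the SKIL and TGIF1 sequences overlap a peak was therefore not determined. The SMAD7 peaks lie 1 to 2 kb upstream, beyond the bases shown, and the TGIF1 site was not assigned to a start. Capitals mark CAGAC, the SMAD box, and GTCTG, the same box on the other strand. SMAD7 has 3 annotated starts and the most upstream is shown. TGIF1 has 7, and the start with most matches to CAGAC and TGTCA together is shown.
SKIL, chr3:170357465-170357764, plus strand: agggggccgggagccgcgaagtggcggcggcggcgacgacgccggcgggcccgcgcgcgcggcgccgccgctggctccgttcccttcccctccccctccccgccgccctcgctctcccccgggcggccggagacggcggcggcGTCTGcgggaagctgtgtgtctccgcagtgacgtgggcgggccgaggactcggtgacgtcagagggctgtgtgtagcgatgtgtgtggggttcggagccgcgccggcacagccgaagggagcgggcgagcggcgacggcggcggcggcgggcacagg
SMAD7, chr18:48950916-48951215, minus strand: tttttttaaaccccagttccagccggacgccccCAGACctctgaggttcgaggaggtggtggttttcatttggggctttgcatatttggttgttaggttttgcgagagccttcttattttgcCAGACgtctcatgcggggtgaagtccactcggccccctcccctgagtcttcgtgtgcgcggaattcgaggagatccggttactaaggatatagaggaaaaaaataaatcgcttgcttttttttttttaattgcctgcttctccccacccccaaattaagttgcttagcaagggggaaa
TGIF1, chr18:3449318-3449617, plus strand: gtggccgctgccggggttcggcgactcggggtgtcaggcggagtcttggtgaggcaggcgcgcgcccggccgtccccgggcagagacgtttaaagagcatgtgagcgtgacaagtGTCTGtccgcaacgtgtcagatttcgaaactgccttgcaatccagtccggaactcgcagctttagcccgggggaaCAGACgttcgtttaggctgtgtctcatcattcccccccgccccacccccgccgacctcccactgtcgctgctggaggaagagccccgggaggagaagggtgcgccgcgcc

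The SKIL promoter held 1 SMAD box, the SMAD7 promoter shown held 2, and the TGIF1 promoter shown held 2. The other SMAD7 promoters, not shown, held 0 and 1. At least 1 box was present in 45.3% of the 35116 promoters of the RefSeq table and at least 2 in 13.1%, so boxes are common in windows of this length. The 7 genes found in the table had 23 promoters, of which 17 held a SMAD box. Of the 23, LDLRAD4 had 9 and TGIF1 had 7, and some overlap each other, so a box can be counted more than once. GC-rich elements bound by SMAD3 and SMAD4 were searched on both strands as GGCGC and GGCCG, which can overlap each other, and were present in 48.6% and 49.3% of all promoters. SKIL held 3 matches to GGCGC and 4 to GGCCG, and the TGIF1 promoter shown held 4 and 3. The SMAD7 promoter shown held 0 and 1. The TGIF core TGTCA was present in 38.9% of all promoters and 3 times in the TGIF1 promoter shown. The palindromic element GTCTAGAC, present in 0.202% of all promoters, was in 0 of the 23, and the AP-1 site TGANTCA, present in 7.71%, was in 3 of the 23, all of them TGIF1 promoters. The TGIF1 promoter was chosen by its matches, so its counts are no support for anything, and all of these matches describe letters in a window, not binding.

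Binding was listed near 6 of the 8 genes. SKIL, SMAD7, SKI and SMURF2 had peaks at both times, LDLRAD4 at 16 h only and TGIF1 at 1.5 h only. SMURF1 and BAMBI had no peak in their windows at either time. At each time 5 of 8 windows held a peak. Among 18360 tiles of 161 kb, the median window length, laid over the span of the listed peaks, 14.0% held a peak at 16 h, 7.84% at 1.5 h and 3.45% at both times. Those tiles include sequence without genes, and no hg19 gene annotation was used to draw tiles around other genes. Peak density in the windows was 7.33 per Mb at 16 h and 8.55 per Mb at 1.5 h, against 1.12 and 0.768 per Mb over the span of the whole lists. SMAD7 alone gave 6 of the 12 peaks at 16 h and 7 of the 14 at 1.5 h. Each peak was counted singly, although 6 of 7 gaps between neighbouring peaks at 16 h and 6 of 9 at 1.5 h were under 500 bp.

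**Figure D1:**
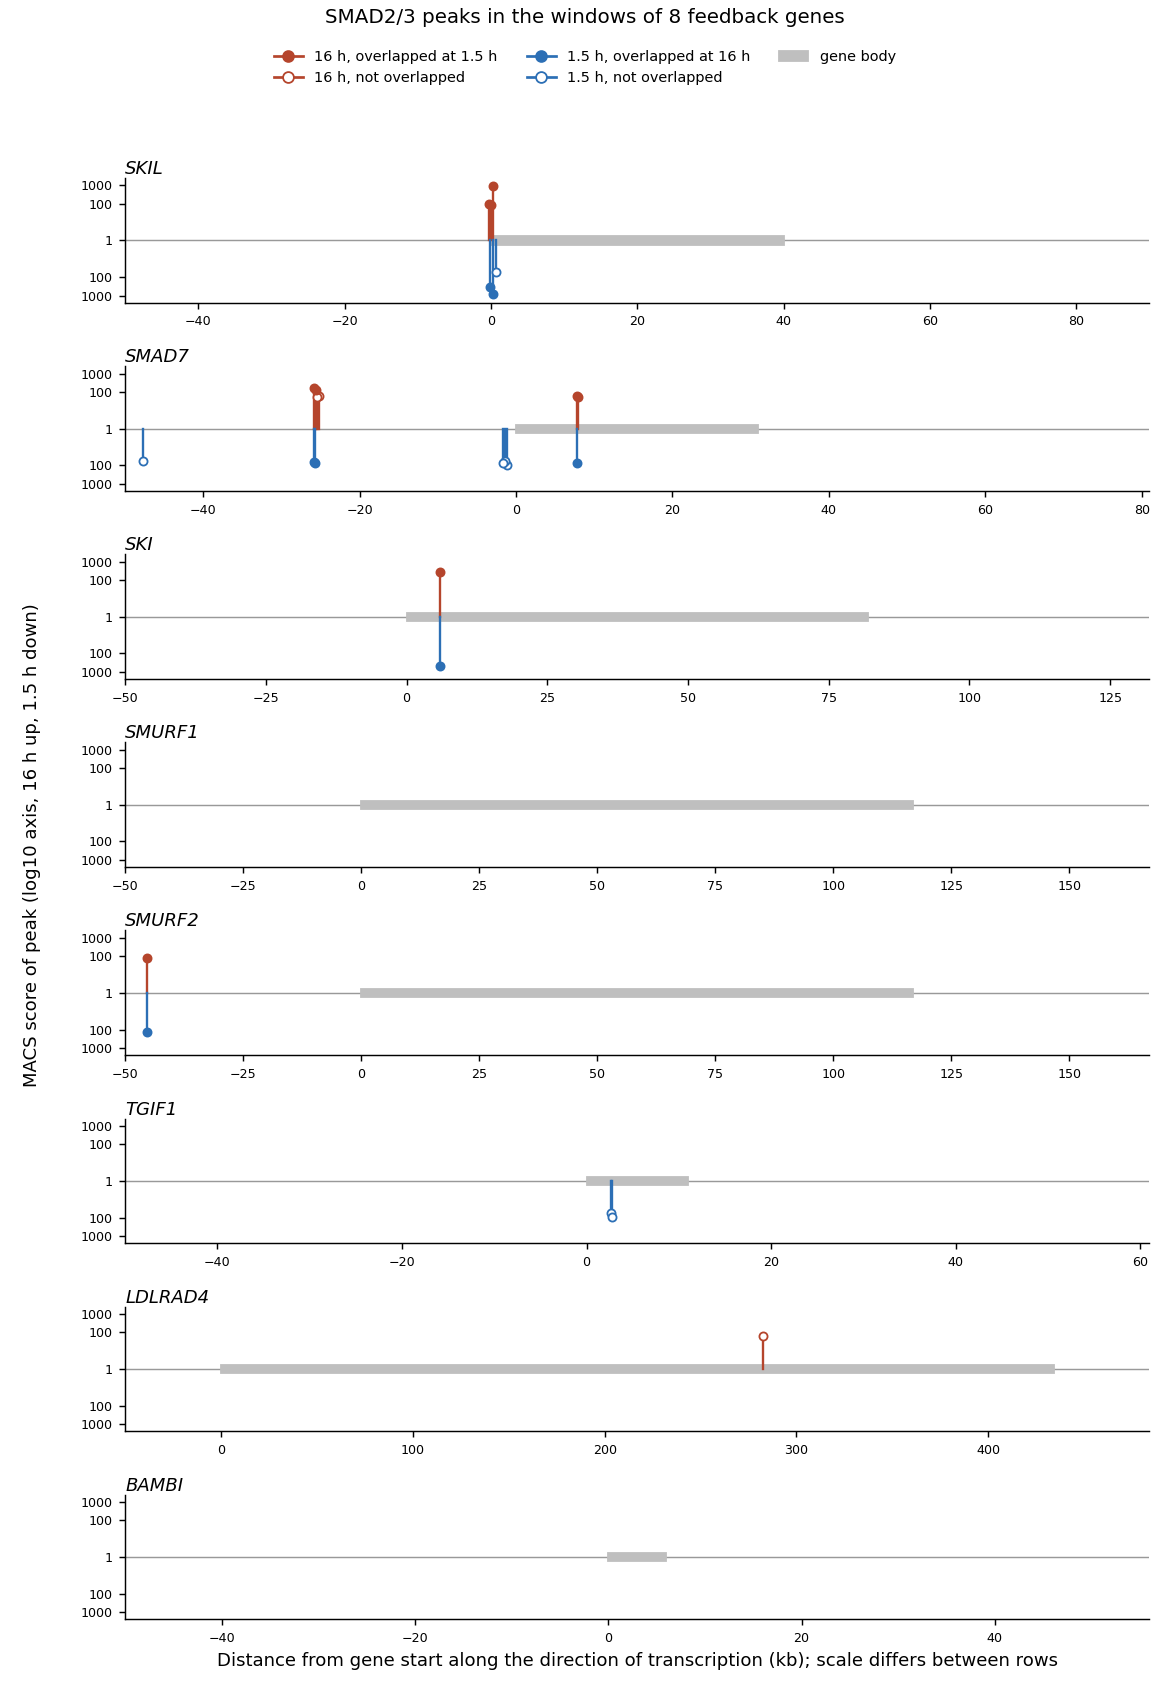
Peaks in the window of each gene by distance from the gene start in kb (horizontal axis, scale differs between rows). The vertical axis is the authors' peak score (labelled MACS score) on a log axis, with 16 h peaks drawn upwards and 1.5 h peaks downwards. Filled points overlap a peak of the other time, and SMURF1 and BAMBI have no peak within 50 kb.

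When peaks of either list under 500 bp apart were joined, a grouping chosen after the lists were seen, the windows held 9 sites. Of these, 5 held peaks of both times, 1 held a 16 h peak only and 3 held 1.5 h peaks only. Over the whole series, 520 of 4299 such sites (12.1%) held peaks of both times. Peak by peak, 9 of 12 peaks at 16 h shared at least 1 bp with a 1.5 h peak (75.0%, 95% exact Clopper-Pearson interval 42.8 to 94.5%), against 16.6% of the whole 16 h list. At 1.5 h, 7 of 14 peaks overlapped a 16 h peak (exact interval 23.0 to 77.0%), against 25.3% of the whole 1.5 h list. These intervals cover counting error only, and only if peaks were independent, which neighbouring peaks at a gene are not. They may be too narrow and are no test against the whole lists. The genes were also chosen with earlier results of these data known.

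The co-repressor gene SKIL carried the highest-scoring peak of the group at both times, at its gene start. At 16 h its main peak, on chromosome 3 at 170075049 to 170075629, scored 899.6 and ranked 3 of 3280. At 1.5 h the main peak, at 170075020 to 170075582, scored 875 and ranked 9 of 2206. Both peaks lie just inside the start of the gene interval, they share 534 bp, and the score is the authors' own value for the peak. That start is given to the nearest kb, so inside and upstream cannot be told apart for peaks this close to it. Smaller peaks adjoined the main peak on either side. At 16 h these were upstream at 170074621 to 170074770, scoring 103, and at 170074916 to 170074998, scoring 81.6. At 1.5 h a single peak at 170074747 to 170074994 with a score of 323 met both of those 16 h peaks, and another at 170075661 to 170075769 scored 53.4 and met none, ending the 1149 bp site. No other peak of either list lay within the SKIL window, and the next one outside was 457 kb away at 16 h and 1330 kb away at 1.5 h.

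SKI, the founding member of the same co-repressor family, had 1 peak at each time, about 6 kb inside the gene. The 16 h peak, on chromosome 1 at 2165835 to 2166210, was 376 bp wide, scored 271 and ranked 62 of 3280. The 1.5 h peak, at 2165579 to 2166270, was 692 bp wide, scored 511 and ranked 24 of 2206. The 16 h peak lay wholly within the 1.5 h peak and covered 54.3% of it. Whether the position is exonic or intronic was not assigned, since no hg19 annotation was used. The nearest peaks beyond the SKI window were 879 kb away at both times, upstream of the gene. No SKI promoter was found in the RefSeq table.

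TGIF1, the homeodomain co-repressor gene, had peaks at 1.5 h only, about 3 kb inside the gene interval. One spanned 3449553 to 3449684 on chromosome 18, scored 57.4 and ranked 1607 of 2206, and its neighbour spanned 3449706 to 3449852, scored 98.5 and ranked 461. The gap between them was 21 bp, so they form a single 300 bp site. The nearest 16 h peak was 1396 kb from the gene. The 7 annotated TGIF1 starts are on GRCh38 and were not converted to hg19. Which start this site is nearest to, or overlaps, was therefore not determined.

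SMAD7, the inhibitory SMAD, had the most peaks of the group, 6 at 16 h and 7 at 1.5 h, at 4 separate sites. The site next to the gene start was listed at 1.5 h only. It lay 1 to 2 kb upstream on chromosome 18. Its peak nearest to the gene, from 46478074 to 46478246, scored 93.0. The next one, from 46478335 to 46478438, scored 59.2, and the last, from 46478577 to 46478747, scored 76.4. Together these span 674 bp, and the nearest 16 h peak was 9 kb away, within the gene.

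About 26 kb upstream of SMAD7, another site was listed at both times. There the 16 h list had 4 peaks within 865 bp. The pair scoring highest, 126 at 46502528 to 46502743 and 167 at 46502753 to 46502997, ranked 264 and 167 of 3280. The other 16 h peaks, at 46502133 to 46502275 and 46502406 to 46502510, scored 59.8 and 52.2. At 1.5 h the site had 2 peaks, at 46502614 to 46502724 with a score of 78.3 and at 46502774 to 46502933 with a score of 65.7, ranking 710 and 1065 of 2206. Each of these lay wholly inside a 16 h peak. Scores and ranks of the libraries are set side by side and were not compared, because the lists differ in length and depth is unknown.

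The SMAD7 gene body also held a site, about 8 kb inside. At 16 h it was listed as peaks at 46468951 to 46469176 and 46469182 to 46469301, only 5 bp apart, with scores of 55.3 and 61.5. At 1.5 h it was 1 peak at 46469169 to 46469308 with a score of 79.8. The remaining site, 48 kb upstream at 46524576 to 46524739 and so just inside the window's limit, was listed at 1.5 h and scored 61.7. The nearest 16 h peak to it was 22 kb away. The gene upstream of SMAD7 in the RefSeq table is DYM, so the distal sites may lie between or within these genes, and they were given to SMAD7 by distance alone.

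**Figure D2:**
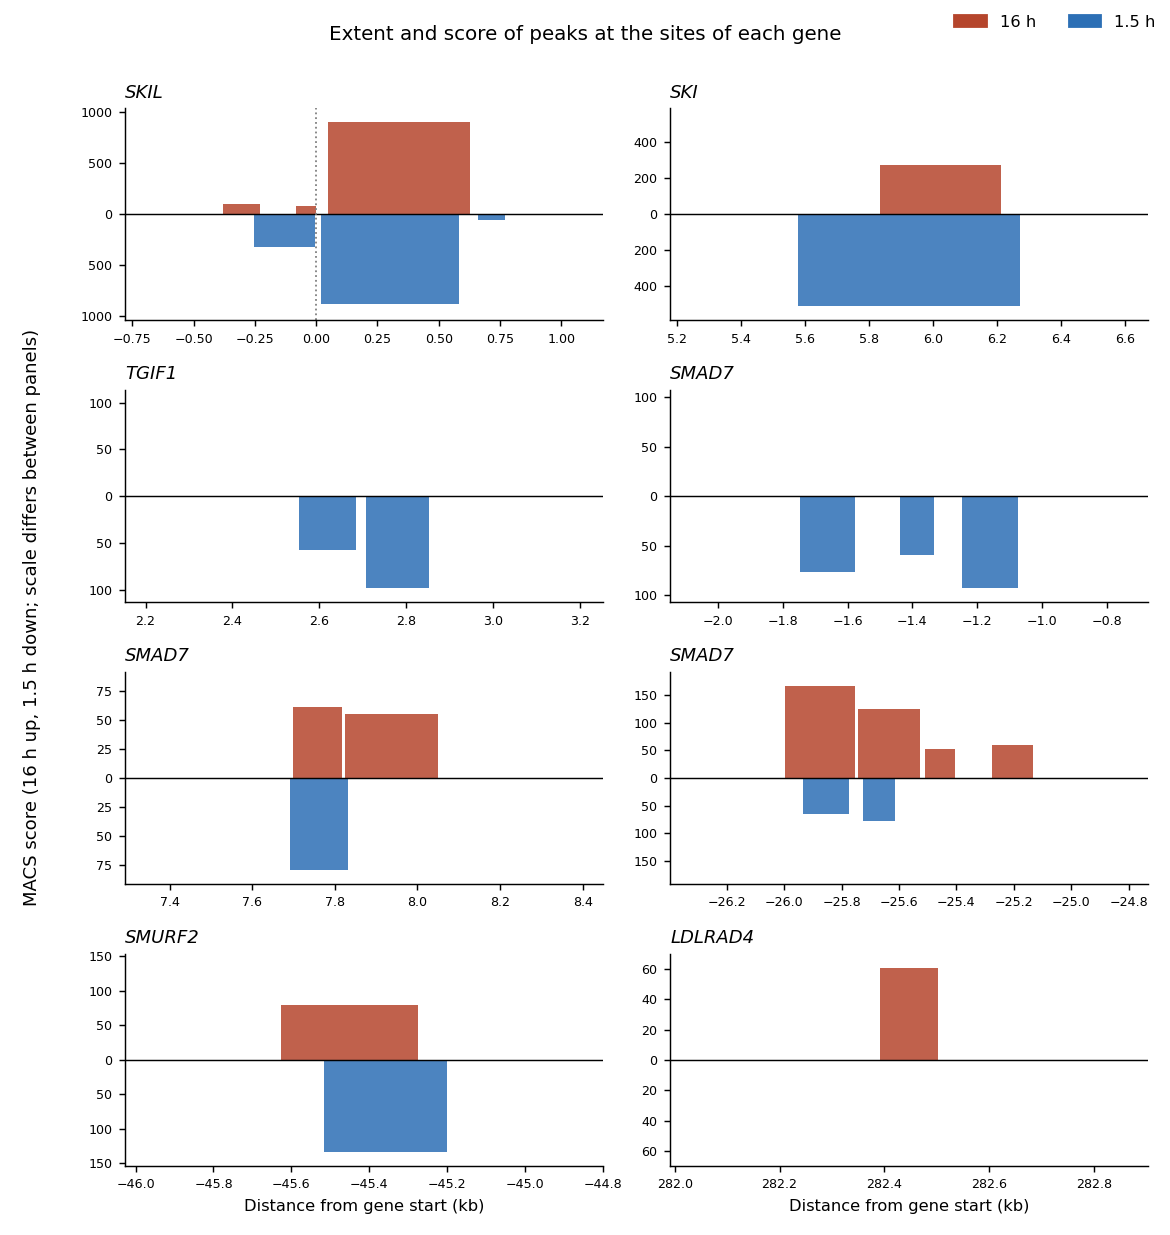
Extent and score of each peak at 8 of the 9 sites, with 16 h above the line and 1.5 h below it, against distance from the gene start in kb (gene starts are known to the nearest kb). The SMAD7 site just upstream of the gene start and the TGIF1 site have bars at 1.5 h only, and the SMAD7 site about 26 kb upstream has 4 bars at 16 h and 2 at 1.5 h.

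Of the ubiquitin ligase genes, only SMURF2 had binding in its window, far upstream of the gene. SMURF2 had 1 peak at each time about 45 kb upstream on chromosome 17. At 16 h it lay at 62703274 to 62703627 and scored 79.3, ranking 595 of 3280. At 1.5 h it lay at 62703200 to 62703517 and scored 133, ranking 252 of 2206. The peaks shared 244 bp. The site lies close to the 50 kb limit of the window, and the next protein-coding gene upstream in the RefSeq table is LRRC37A3.

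SMURF1 had no peak in its window, but a site lay just beyond the limit, 57 kb upstream on chromosome 7. It was listed at 16 h at 98798644 to 98799009 with a score of 233, ranking 86 of 3280. At 1.5 h it was listed as peaks at 98798710 to 98798888 with a score of 82.8 and at 98798890 to 98799013 with a score of 103. A further 16 h peak at 98822257 to 98822426, 80 kb upstream, scored 79.0 and had no partner at 1.5 h. KPNA7 is the upstream neighbour of SMURF1 in the RefSeq table, and these peaks may lie in or near it. The other peak between 50 and 100 kb of any of the 8 genes was a 1.5 h peak 86 kb downstream of SMAD7, at 46359695 to 46359807, which scored 65.1.

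Of the membrane proteins, LDLRAD4 had 1 peak and BAMBI none. The LDLRAD4 peak was listed at 16 h, spanned 13501391 to 13501503 on chromosome 18, scored 60.6 and ranked 1205 of 3280. It lay 282 kb inside the 434 kb gene, which has the longest window of the group, and the nearest 1.5 h peak to it was 1493 kb away. The peak nearest to BAMBI was 268 kb upstream at 16 h, with a score of 60.8, and 1267 kb downstream at 1.5 h, with a score of 57.4.

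The highest-scoring peaks of the group were listed at both times. At 16 h, 5 of the 12 peaks scored 100 or more, against 11.5% of the whole list, and at 1.5 h 4 of the 14 did, against 20.1%. All 5 such peaks at 16 h overlapped a 1.5 h peak, where 62.3% of the list's peaks of that score did, and all 4 at 1.5 h overlapped a 16 h peak, where 58.3% did. Among peaks scoring 60 to 100, 3 of 4 at 16 h overlapped a 1.5 h peak (23.7% of the list), and 3 of 7 at 1.5 h overlapped a 16 h peak (21.0% of the list). Under 60, 1 of 3 at 16 h did so (4.75% of the list) and 0 of 3 at 1.5 h (12.0% of the list). The median score of the windows' peaks was 80.5 at 16 h and 79.1 at 1.5 h, against 56.2 and 64.9 in the whole lists.

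**Figure D3:**
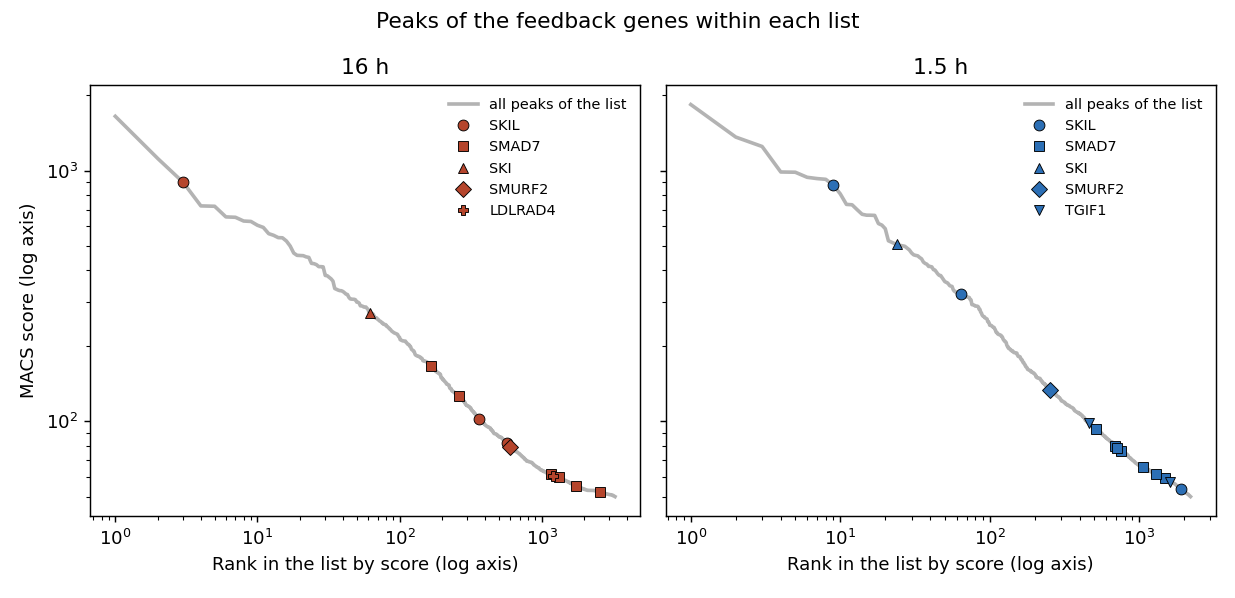
The authors' peak score (labelled MACS score) against rank within the list, both on log axes, at 16 h on the left and 1.5 h on the right. The grey line gives all peaks, and symbols by gene give peaks of the feedback genes. The main SKIL peak stands near the head of both lists, ahead of the SKI peak. Other SKIL peaks rank 365 and 566 at 16 h and 64 and 1917 at 1.5 h. The SMAD7 peaks rank between 167 and 2552 of 3280 at 16 h and between 513 and 1485 of 2206 at 1.5 h.

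By position, every peak in the windows lay in a gene body or upstream of a gene start, and 0 lay downstream of a gene. The upstream peaks came from 3 genes at each time, and the split by position was not computed for other genes. For SKIL the split between upstream and gene body rests on a gene start known only to the nearest kb. Within 10 kb of the start there were 6 peaks at 16 h, at 3 genes (SKIL, SKI and SMAD7). All 6 overlapped a 1.5 h peak, against 16.6% of the whole 16 h list. Some overlaps were slight, 24 bp (16.0% of its width) for the SKIL peak scoring 103 and 8 bp (3.54%) for the SMAD7 peak scoring 55.3. Each remaining peak was covered over 91.9% or more of its width. The 6 peaks form a single joined site at each of the 3 genes, so they are not independent. At 1.5 h there were 10 peaks within 10 kb of the start, at 4 genes (the same with TGIF1). Of these, 4 overlapped a 16 h peak, against 25.3% of the whole 1.5 h list. Shares for peaks near the starts of other genes were not computed. The 6 without a partner were the 3 at the SMAD7 start, both at TGIF1 and the smallest at SKIL. Of the gaps between neighbouring peaks of a window, 6 of 7 at 16 h and 6 of 9 at 1.5 h were under 500 bp, a share not computed for other windows.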

How the data were processed

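Processed data were 2 SMAD2/3 peak lists on hg19, 1 library each. The authors deposited BED intervals with a score per peak; MACS 1.4.2, Bowtie 1.1.0 and Picard appear in the submitters' processing notes. Settings, duplicate handling and input use are unstated there. Scores began at 50 (16 h) and 50.02 (1.5 h). Their definition is unstated, so they only ranked or classed peaks within a list. Starts were made 1-based. Peaks overlapping a gene body extended by 50 kb were counted, and overlap meant at least 1 bp. All 8 genes are named. Genes, windows and lists were chosen with earlier results of these data known. Other pathway genes were not analysed, since no hg19 annotation was used. Gene strand came from the RefSeq promoter table (SKI: general knowledge). No test was made. Alternatives changed the window, score minimum, list length, peak merging and overlap. Counting code was tested on 20 made-up pairs of lists with known answers and returned them. Calculations ran in Python 3.11.15 with pandas 2.3.3, numpy 2.4.6 and scipy 1.17.1, and figures in matplotlib 3.10.9.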

Additional observations from a re-analysis of the deposited data

How the results depend on the processing

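Of 53 counts recomputed under 9 alternatives, 37 stayed within 1.5 times the reported value and 16 did not. With gene bodies only, peaks in the windows numbered 5 at 16 h and 6 at 1.5 h, of which 4 and 3 overlapped the other list. With 10 kb each side there were 7 peaks at 16 h, and 4 of the 1.5 h peaks overlapped a 16 h peak. With peaks scoring at least 100 in both lists, 3 genes had a peak at 16 h, 3 at 1.5 h and 2 at both, the windows held 5 and 4 peaks, and 3 of each overlapped. With peaks under 500 bp apart merged, they held 6 and 8 peaks, and 5 of the 16 h ones overlapped. The 100 kb window added SMURF1 to both times. Equal list lengths (2324 peaks kept at 16 h, ties included), a score of at least 60, an overlap of 50% of both peaks and a distance of 500 bp moved no count by more than 1.5 times. At an overlap of 50% of both peaks, 6 of the 16 h peaks overlapped, against 9 as reported, which is at the 1.5 limit itself. For the 1.5 h peaks it was 6 against 7. The shifts beyond that limit follow from fewer peaks or shorter windows. No paired analysis was possible because there is 1 library a time, and none could be left out. Depth is unknown, so whether a site listed at 1.5 h only was bound at 16 h was not tested.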
